A study of Jaculus jaculus with 29 samples.

Results

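The genes described here are 40 listed genes of the ATF4, ATF5 and amino-acid response, looked up in the supraoptic nucleus of the lesser Egyptian jerboa (Jaculus jaculus). A listed gene was taken as found where the authors' deposited table for dehydration gave its symbol, in old or new form, and its Ensembl identifier was in the count table. This found 33 of the 40 genes, among 29170 genes in the count table, and all 33 passed the filter on low counts. Another 6 (Atf4, Atf3, Cebpg, Chac1, Ppp1r15a and Slc3a2) had no symbol in that table and were named only by their position in the RefSeq annotation of the same assembly, so they are kept out of the counts below. Cth, an enzyme of cysteine synthesis, was not matched and is not analysed here. Coordinates are those of the mJacJac1 assembly.

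Polyadenylated RNA was sequenced from 29 libraries, each from 12 punches of the nucleus made with a 1 mm core in sections of 100 µm. The Control group (10 libraries, 5 female and 5 male) drank freely, the Dehydrated group (10 libraries, 6 female and 4 male) was restricted from water for 11 days, and the Rehydrated group (9 libraries, 4 female and 5 male) was restricted for 7 days and then drank freely for 3 days. Animals of all groups lived alone and had dry pellets at all times, and no source used here gives their ages. The labels number the samples within a group without stating that each is a separate animal, so p-values measure the spread between these samples.

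Total counts per library were 10797577 to 17834438 in Control, 14084542 to 18856620 in Dehydrated and 14235024 to 18516535 in Rehydrated. Control M01 stood apart from the rest: along the leading principal component of log2 CPM (fragment counts scaled to a common library total), with 21.7% of the variance, its score was 137 and the other libraries scored between -13.7 and 7.76. It was the highest Control library for 16 of the 33 genes found and the lowest for 7, so log2 differences from Control are given with and without it. All 8 magnocellular neuron markers (Avp, Oxt, Pdyn, Sim1, Otp, Pou3f2, Caprin2 and Calb1) were detected, and their summed level was 862.5 to 3830 CPM in Control, 2400 to 7135 CPM in Dehydrated and 600.5 to 5467 CPM in Rehydrated. Avp alone averaged 934.3, 3293 and 2037 CPM in these groups, so the sum does not measure the content of nucleus apart from Avp.

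ATF4 is a transcription factor whose protein is made when kinases that sense missing amino acids, misfolded protein or other stress phosphorylate the translation factor eIF2. It switches on genes for amino acid synthesis, amino acid uptake and the charging of tRNAs, together with feedback regulators that end the response. ATF5 is a related factor controlled in a like way through upstream reading frames in its mRNA, and it is known for its role in the response of mitochondria to misfolded protein and in neural cells. Magnocellular neurons of the supraoptic nucleus make large amounts of vasopressin precursor when water is short, and this places a load on protein synthesis and folding.

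In Control, the 12 cytosolic tRNA synthetases found spanned 15.8 to 104.4 CPM per kb of exon and 5 of them held the first 5 places among the 33 genes. The 4 feedback regulators and stress effectors spanned 0.362 to 8.61 CPM per kb, and the transcription factors, synthesis enzymes and transporters, at 2.64 to 51.8 CPM per kb, overlapped both. Nars1, which charges asparagine tRNA, led with 104.4 ± 13.99 CPM per kb of exon (SD, n = 10), followed by Aars1 for alanine at 86.1 ± 7.48 CPM per kb. The asparagine synthetase Asns came 6th, at 51.8 ± 7.88 CPM per kb. Atf5 came 23rd of the 33, at 8.10 ± 1.65 CPM per kb, and did not differ beyond its spread from its neighbours Sesn2 (8.61 ± 1.95 CPM per kb) and Nupr1 (6.67 ± 3.27 CPM per kb). Trib3 and Stc2 closed the order, at 1.08 ± 0.385 and 0.362 ± 0.244 CPM per kb. Without Control M01 Atf5 kept its place at 7.695 ± 1.097 CPM per kb (n = 9), and Nars1, Asns and Stc2 were at 101.6, 49.96 and 0.365 CPM per kb.

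**Figure D1:**
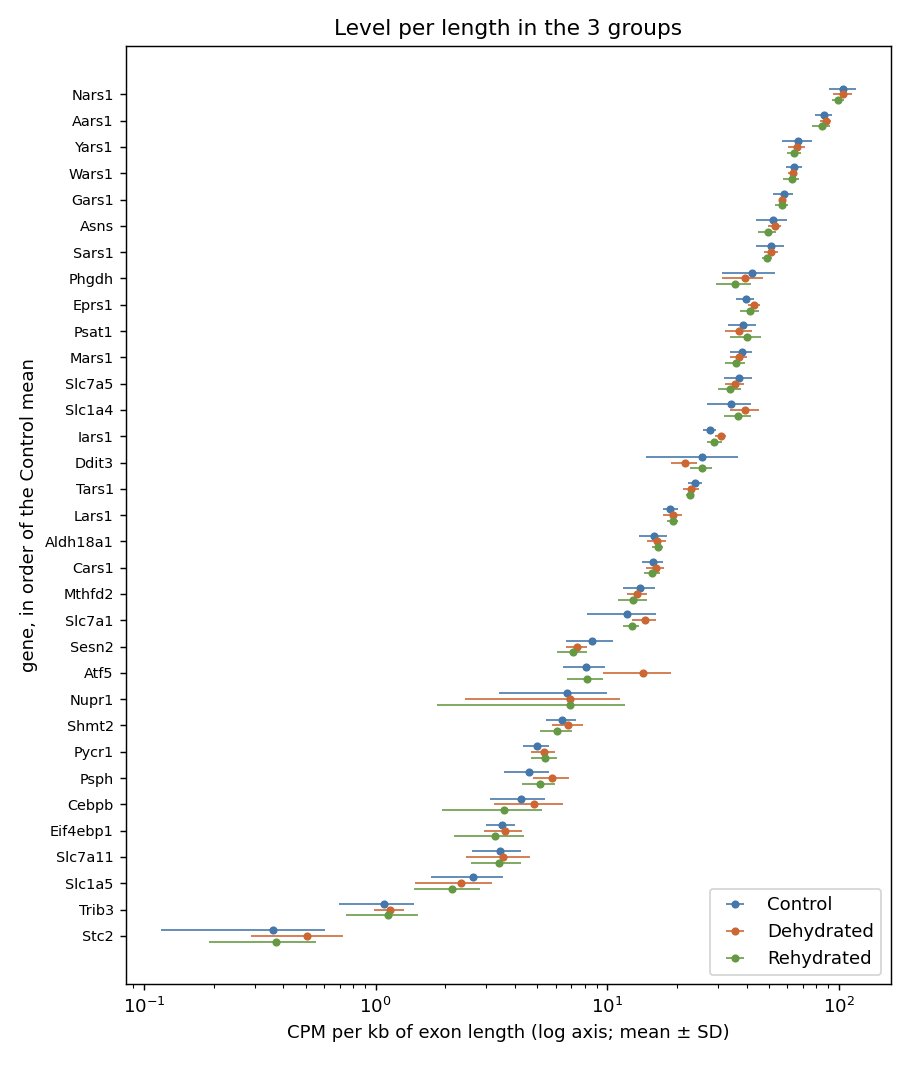
Mean level per length (CPM per kb of exon, log axis, bars are SD) of the 33 genes in Control, Dehydrated and Rehydrated, in order of the Control mean. The order runs from Nars1 (104.4 CPM per kb in Control) to Stc2 (0.362 CPM per kb), and Atf5 is the gene whose Dehydrated point lies farthest to the right of its other 2 points.

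The first comparison asked which genes of the response differed after 11 days of restriction. Atf5 rose and was the only one of the 33 genes found that passed the test, while 0 fell. The test was edgeR's quasi-likelihood test with group and sex in 1 model over all libraries, with Benjamini-Hochberg adjustment over all 17558 genes tested and a threshold of 0.05. Over all genes, 0.125% passed in this comparison (22 genes, 20 of them higher), and without Control M01 0.0969% passed, Atf5 again being the only one of the 33. The median log2 fold change of the 33 genes was 0.027, beside -0.0030 over all genes tested, and 20 of the 33 lay above 0. Without Control M01 the median was 0.039, beside 0.0021 over all genes, and 24 of the 33 lay above 0. At an unadjusted p under 0.05 there were 3 of the 33 genes (Atf5, Iars1 and Psph), where 6.37% of all genes had one. DESeq2 called 1 of the 33, again Atf5, and 0.222% of all genes. In edgeR without Control M01, 4 of the 33 (the same genes and Sesn2) had an unadjusted p under 0.05, beside 1007 of 17545 genes.

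Atf5 (ENSJJAG00000032738, chromosome 14, 20591654 to 20595705, minus strand) encodes the transcription factor ATF5 and overlaps no other annotated gene. Its level was 11.9, 15.95 and 23.9 CPM (lowest, median, highest) in Control, 16.6, 27.1 and 43.5 CPM in Dehydrated, and 12.3, 17.95 and 20.2 CPM in Rehydrated. All 10 Dehydrated libraries lay above the Control median and 7 above the highest Control library, which was Control M01 at 23.9 CPM, so the groups overlapped in part. The highest Dehydrated libraries were F05 (43.5 CPM), F04 (40.2 CPM) and F06 (39.2 CPM), and the lowest were F07 (17.95 CPM) and M02 (16.6 CPM).

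Atf5 averaged 16.5 ± 3.35 CPM (SD, n = 10) under free water and 28.9 ± 9.52 CPM (n = 10) under restriction. In edgeR its log2 fold change was 0.82 (SE 0.16, 95% interval 0.49 to 1.15, adjusted p = 0.0226). Without Control M01 the Control mean was 15.6 ± 2.23 CPM (n = 9), the log2 fold change 0.89 and the adjusted p 0.00764. The authors' deposited table, made with DESeq2, gave Atf5 a log2 fold change of 0.89 with an adjusted p of 1.93e-05. The next smallest adjusted p among the 33 genes in that table was 0.265. Its log2 fold changes lay near those of edgeR without Control M01. Slc7a1 was at 0.13 there, beside 0.135 without and 0.25 with that library, and Sesn2 at -0.29, beside -0.28 and -0.22. The deposited adjusted p may therefore not rest on all 29 libraries. The call did not hold in every fit: it was lost when only Control and Dehydrated were fitted (adjusted p = 0.0902), and when any 1 of Control F01, F05, M03 or M05 or Dehydrated F05 or M06 was left out (adjusted p up to 0.0647 in edgeR).

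Values of Atf5 within each sex, chosen after seeing the data, are given without a test because the gene was singled out on these libraries. Females averaged 30.7 ± 11.9 CPM (n = 6) in Dehydrated and 15.2 ± 1.37 CPM (n = 5) in Control, a log2 difference of 0.91. Males averaged 26.3 ± 4.72 CPM (n = 4) and 17.7 ± 4.41 CPM (n = 5), a log2 difference of 0.59. By sex label, female groups did not overlap, with Dehydrated from 16.63 CPM and Control up to 16.18 CPM. Male groups overlapped through Control M01, without which the log2 difference in males was 0.70. For 3 libraries the sex label is not the letter in the library name. By that letter the log2 difference was 1.00 in libraries named F and 0.52 in libraries named M, or 0.65 without Control M01. The groups then overlapped in libraries named F (Dehydrated from 17.95 CPM, Control up to 18.86 CPM). They also overlapped in libraries named M, even without Control M01 (Dehydrated from 16.63 CPM, Control up to 18.3 CPM). The lack of overlap therefore depended on the label used, and the share of all genes without overlap was not computed.

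**Figure D2:**
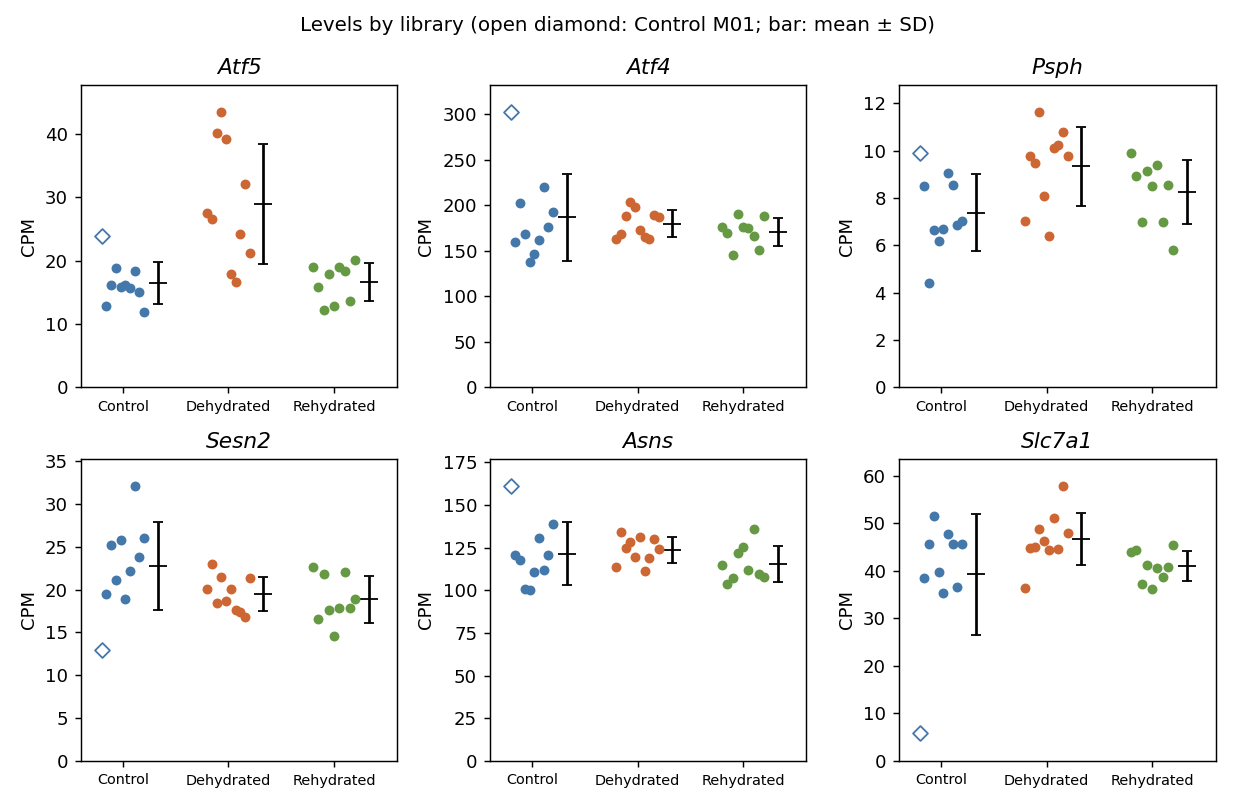
Level (CPM) of Atf5, Atf4, Psph, Sesn2, Asns and Slc7a1 in each library by group; bars are the mean and SD, and the open diamond is Control M01. Atf5 is above the Control median in all 10 Dehydrated libraries, while the Control M01 diamond is the highest Control point for Atf4 and Asns and the lowest for Sesn2 and Slc7a1.

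Markers of other cell types are given beside this result. The 5 matched oligodendrocyte markers of 8 were all lower in Dehydrated than in Control, with a median log2 fold change of -0.33 and a summed level of 2185 to 5881 CPM against 2390 to 6068 CPM. Summed levels in Rehydrated were 1068 to 7683 CPM. The 3 matched blood markers of 4 were also all lower, with a median of -1.47 and sums of 31.8 to 187.8 CPM against 114.4 to 806.7 CPM, and 34.3 to 992.4 CPM in Rehydrated. Without Control M01 the medians were -0.36 and -1.39. Of 6 oligodendrocyte precursor markers, 2 were higher (median -0.15, and -0.205 without Control M01), with sums of 351 to 517.3 CPM in Dehydrated, 398.9 to 882.4 CPM in Control and 233.6 to 727.5 CPM in Rehydrated. The 7 matched microglia and macrophage markers of 8 had a median of -0.196, which turned to 0.0625 without Control M01, the library with the highest sum (399.9 CPM, against 109.1 to 175.2 CPM in Dehydrated and 114.5 to 210.2 CPM in Rehydrated). No gene of these 4 lists passed the test. Of the 7 ependymal and choroid plexus markers, 5 were tested and 1 passed: Kl, the co-receptor Klotho, averaged 3.71 CPM in Dehydrated and 1.09 CPM in Control, with a log2 fold change of 1.74 (edgeR, adjusted p = 0.0476) and of 1.67 without Control M01 (adjusted p = 0.0951). The sum of that list was 10.61 to 37.4 CPM in Dehydrated, 12.4 to 28.96 CPM in Control and 12.6 to 47.65 CPM in Rehydrated. The astrocyte, endothelial, mural and neuron lists had medians of 0.0226, -0.055, -0.16 and 0.0664, or -0.0493, -0.0562, -0.107 and 0.0185 without Control M01, and no gene that passed. In the magnocellular list 3 of 8 genes passed, namely Avp, Pdyn and Caprin2, an RNA-binding protein (median log2 fold change of the list 0.058, and 0.068 without Control M01), and without that library Avp no longer did (adjusted p = 0.0879 in edgeR). No matched marker had a mean of 0, and the part of any of these lists in the difference of Atf5 was not tested. In tissue punches, fewer cells of a type and less RNA per cell cannot be told apart.

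The other transcription factors did not pass the test. Atf4 (chromosome 6, 156944171 to 156947049, named by position) was at 138, 172 and 302 CPM (lowest, median, highest) in Control and at 162, 180 and 204 CPM in Dehydrated, and the Dehydrated range lay within that of Control. Its log2 fold change was -0.03 with a 95% interval of -0.23 to 0.16 (edgeR, adjusted p = 0.941), and 0.06 with an interval of -0.09 to 0.20 without Control M01, whose 302 CPM was the highest value of Atf4 in any library. At the mRNA level a change of Atf4 as large as that of Atf5 thus lay outside both intervals.

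Ddit3, the stress factor CHOP, averaged 19.5 ± 8.30 CPM in Control against 16.4 ± 2.11 CPM in Dehydrated, with a log2 fold change of -0.22 that went to -0.04 without Control M01, where it was at 42.4 CPM. The Ddit3 record used (chromosome 6, 101183764 to 101184744) overlaps the end of Mars1 on the other strand, and with no strand option in the counting the reads of the 2 genes cannot be told apart. A second record placed at Ddit3 by RefSeq (chromosome 6, 101186187 to 101189821) gave 5.17 ± 1.02 and 5.72 ± 0.595 CPM, a log2 fold change of 0.17 (0.18 without Control M01), so the direction for Ddit3 is uncertain. Cebpb, a C/EBP factor that acts with ATF4, had a log2 fold change of 0.20 with an interval of -0.30 to 0.71, and Nupr1, a small stress-induced chromatin protein, one of 0.01 with an interval of -0.74 to 0.75. Without Control M01 these were 0.25 and 0.13. Both were low (3.83 ± 1.01 and 3.01 ± 1.47 CPM in Control), and these intervals are among the widest of the 33 genes. Cebpg, the C/EBP partner of ATF4, averaged 36.1 ± 4.84 CPM in Control against 35.97 ± 4.75 CPM in Dehydrated, with a log2 interval of -0.17 to 0.16, or -0.10 to 0.19 without Control M01. Atf3, a stress-induced repressor, was at 0.199 to 4.85 CPM in Control, the highest being Control M01, and at 0.136 to 1.51 CPM in Dehydrated. The log2 fold change of Atf3, -0.43, turned to 0.05 without that library.

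Of the feedback regulators and stress effectors, 0 of the 4 found passed in either direction, with a median log2 fold change of 0.050 (0.059 without Control M01). Trib3, a pseudokinase that restrains ATF4, was at 1.07, 1.69 and 3.09 CPM (lowest, median, highest) in Control and 1.62, 2.05 and 2.41 CPM in Dehydrated, with the Dehydrated range inside the Control range (log2 fold change 0.08 with and without Control M01). Eif4ebp1, which holds back cap-dependent translation, had a log2 fold change of 0.02 with an interval of -0.28 to 0.33, and 0.04 without Control M01. Stc2, a secreted glycoprotein of the stress response, had a log2 fold change of 0.48 with an interval of -0.28 to 1.25 at a level of 0.0655 to 1.49 CPM in Control, so changes of either sign lie inside its interval. Without Control M01 Stc2 was at 0.47. Chac1, which degrades glutathione, was at 24.1 ± 4.46 and 25.0 ± 2.16 CPM (log2 fold change 0.08, interval -0.11 to 0.26, and 0.14, interval -0.03 to 0.30, without Control M01). Ppp1r15a, the subunit that directs dephosphorylation of eIF2, was above its Control median in 10 of 10 Dehydrated libraries, with a log2 fold change of 0.12 (edgeR, adjusted p = 0.809) and of 0.19 without Control M01 (adjusted p = 0.77).

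Sesn2, which encodes the leucine sensor Sestrin2, was at 12.9, 23 and 32.1 CPM (lowest, median, highest) in Control, 16.8, 19.4 and 22.97 CPM in Dehydrated and 14.6, 17.9 and 22.6 CPM in Rehydrated. No Dehydrated and no Rehydrated library lay above the Control median, and the lowest Control value was that of Control M01. Its log2 fold change was -0.22 (edgeR, p = 0.054, adjusted p = 0.774) in Dehydrated against Control and -0.27 (p = 0.024, adjusted p = 0.60) in Rehydrated against Control. Without Control M01 the first was -0.28 with an interval of -0.48 to -0.09 (edgeR, p = 0.00485, adjusted p = 0.529). The second was -0.34 with an interval of -0.54 to -0.14 (edgeR, p = 0.00127, adjusted p = 0.382). Sesn2 thus did not pass after adjustment in any of these fits.

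In amino acid synthesis, 0 of the 8 genes found passed, with a median log2 fold change of 0.032 and a range of -0.094 to 0.36, or 0.046 and -0.038 to 0.40 without Control M01. Psph, the last enzyme of serine synthesis, was at 4.39, 6.96 and 9.90 CPM (lowest, median, highest) in Control and 6.39, 9.78 and 11.6 CPM in Dehydrated. Of the 10 Dehydrated libraries 9 exceeded the Control median, with ranges that overlapped. Its log2 fold change of 0.36 had an interval of 0.09 to 0.63 (edgeR, p = 0.0109, adjusted p = 0.636), and it was 0.40 without Control M01 (adjusted p = 0.509). Of the earlier enzymes of the same pathway, Phgdh had a log2 fold change of -0.09 (interval -0.38 to 0.19) and Psat1 one of -0.05 (interval -0.23 to 0.14). They were -0.02 and -0.04 without Control M01.

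Asns, a standard readout of ATF4 activity, was at 100.1 to 161 CPM in Control, with Control M01 on top, and at 111 to 134 CPM in Dehydrated, inside the Control range. The log2 fold change of Asns was 0.03 with an interval of -0.12 to 0.17, and 0.08 (interval -0.04 to 0.20) without Control M01. The mitochondrial folate enzymes Shmt2 and Mthfd2 had log2 fold changes of 0.09 and -0.03, and the proline synthesis genes Aldh18a1 and Pycr1 of 0.04 and 0.09. In the same order these 4 genes were at 0.11, 0.01, -0.01 and 0.13 without Control M01, so the signs of Mthfd2 and Aldh18a1 turned. Shmt2 and Mthfd2 overlap other annotated genes, so their counts can hold reads of those neighbours. Of the 8 genes, 7 had an interval wholly between -0.5 and 0.5 on the log2 scale, the exception being Psph, with and without Control M01.

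Among the amino acid transporters, 0 of 5 passed, with a median log2 fold change of 0.060 (0.108 without Control M01). Slc7a1, the cationic amino acid transporter that carries arginine and lysine, was at 5.90, 42.7 and 51.6 CPM (lowest, median, highest) in Control and 36.3, 45.6 and 57.8 CPM in Dehydrated. The 5.90 CPM was Control M01, and the other 9 Control libraries lay between 35.3 and 51.6 CPM, a range that the Dehydrated libraries overlapped. Its log2 fold change was 0.25 (edgeR, adjusted p = 0.804) and 0.135 without Control M01 (adjusted p = 0.871). Slc1a4, a carrier of neutral amino acids including serine, showed the same dependence, at 0.18 with and 0.12 without that library, where it was at 44.6 CPM against 80.2 to 111 CPM in the other Control libraries. Slc7a5, the light chain of the large neutral amino acid carrier, had a log2 fold change of -0.05, and its heavy chain Slc3a2 had the same value, -0.05, while without Control M01 they were at -0.10 and -0.04. Slc7a11, the cystine importer, and Slc1a5, a glutamine carrier, were low (9.30 ± 2.23 and 7.04 ± 2.42 CPM in Control) with log2 fold changes of 0.06 and -0.17, or 0.11 and -0.05 without Control M01.

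The 12 cytosolic aminoacyl-tRNA synthetases load amino acids onto their tRNAs. In Dehydrated against Control their median SE was 0.057, the lowest of any role (0.053 without Control M01). None passed in edgeR, 1 (Iars1) had an unadjusted p under 0.05, and DESeq2 called none. Their log2 fold changes ran from -0.062 (Tars1) to 0.15 (Iars1) with a median of 0.0015, and all 12 intervals lay between -0.17 and 0.25. Without Control M01 the range was -0.060 to 0.14 and the median 0.031, with 10 of 12 above 0 in place of 6, and the intervals lay between -0.16 and 0.23. Between libraries of 1 group these genes varied little, with a coefficient of variation of 6.50% to 14.6% in Control and 3.16% to 9.84% in Dehydrated. The 4 transcription factors found spanned 20.4% to 49% and 12.9% to 65.0%. Those factors had lower Control means (3.01 to 19.5 CPM, against 60.7 to 322 CPM), and counting noise was not separated from spread between libraries. Control M01 was the highest Control library for each of the 4. Without it Ddit3 was at 16.9 ± 2.20 CPM in place of 19.5 ± 8.30 CPM, and Atf5 at 15.6 ± 2.23 CPM in place of 16.5 ± 3.35 CPM. Iars1, for isoleucine, was at 126, 138 and 158 CPM (lowest, median, highest) in Control and 146, 156 and 169 CPM in Dehydrated, and all 10 Dehydrated libraries exceeded the Control median, with overlapping ranges. The log2 fold change of Iars1, 0.15, had an SE of 0.05 (edgeR, p = 0.00403, adjusted p = 0.508), and was 0.14 without Control M01 (adjusted p = 0.509). Iars1 overlaps 2 unnamed genes whose reads could be shared. Eprs1, for glutamate and proline, followed at 0.11 (p = 0.0545, adjusted p = 0.774 in edgeR), and 0.09 without Control M01.

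**Figure D3:**
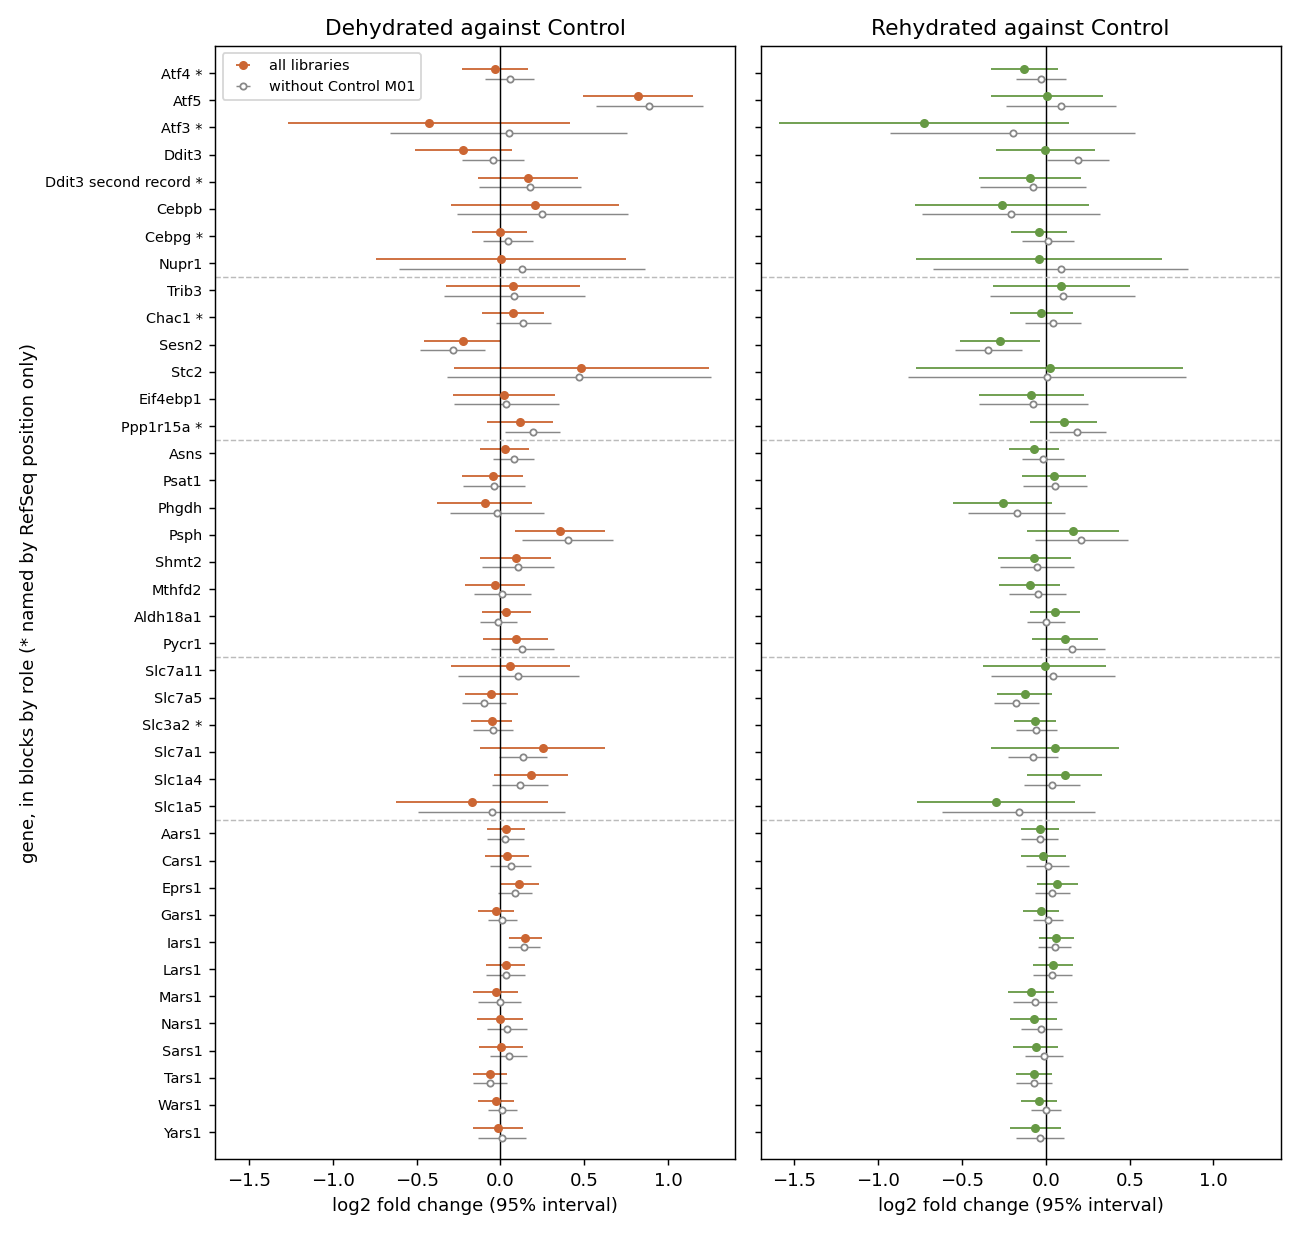
Log2 fold change with its 95% interval for each gene, in blocks by role, in Dehydrated against Control (left) and Rehydrated against Control (right); filled points use all libraries, open grey points leave out Control M01, and an asterisk marks genes named by RefSeq position. On the left the Atf5 interval (0.49 to 1.15) stands clear of 0 and the 12 synthetases lie between -0.17 and 0.25, and on the right the Atf5 point is at 0.01.

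The second comparison asked whether the levels after 3 days of water differed from Control. None of the 33 genes passed in edgeR, where 0% of all genes passed with all libraries and 0% without Control M01. At an unadjusted p under 0.05 there was 1 of the 33 (Sesn2), where 7.48% of all genes had one, and DESeq2 called 0 of the 33 and 0.103% of all genes. In edgeR without Control M01, 3 of the 33 (Sesn2, Slc7a5 and Ddit3) had an unadjusted p under 0.05, beside 1399 of 17545 genes. The median log2 fold change of the 33 was -0.034, beside 0.0030 over all genes, and -0.00014 without Control M01. Atf5 was at 16.6 ± 3.00 CPM (n = 9) in Rehydrated, and its log2 fold change against Control was 0.01 with an interval of -0.32 to 0.34 (edgeR, adjusted p = 0.991), or 0.09 with an interval of -0.24 to 0.42 without Control M01. The Rehydrated range of Atf5, 12.3 to 20.2 CPM, lay within the Control range only with Control M01 (23.89 CPM) included. Without it the highest Control library was at 18.86 CPM. Rehydrated M04 (20.17 CPM), M01 (19.01 CPM) and F04 (18.97 CPM) lay above that value, and the other Rehydrated libraries stayed inside the Control range. Atf4 had a log2 fold change of -0.13 (interval -0.33 to 0.07) and -0.03 without Control M01. Of the 33 genes, 26 had an interval between -0.5 and 0.5, and all 12 synthetases had one between -0.23 and 0.19. Without Control M01 these were 27 of the 33, and -0.19 to 0.16 for the synthetases.

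The third comparison set Rehydrated directly against Dehydrated. In edgeR, 0 of the 33 genes passed, where 0.0228% of all genes did (4 genes, all lower), with the same 0.0228% without Control M01 in the fit. The gene nearest to the threshold was Atf5, with a log2 fold change of -0.81 (SE 0.16, interval -1.15 to -0.47, adjusted p = 0.093), or -0.80 without Control M01 (adjusted p = 0.0548). With all libraries it was the only gene of the 33 with an unadjusted p under 0.05, where 3.88% of all genes had one. Without Control M01 there were 3 (Atf5, Slc7a1 and Ddit3), beside 1142 of 17545 genes. DESeq2 with all libraries called Atf5 (adjusted p = 0.00246) and no other gene of the 33, and called 0.074% of all genes (13 genes). The call of Atf5 here therefore depended on the tool. In edgeR it also passed when Dehydrated F07 (adjusted p = 0.0204), M02 (0.0159) or M08 (0.0484) was left out. Of the 33 genes, 6 lay above 0 and 27 below, and their median was -0.065, beside 0.0041 over all genes. All 5 transporters and 11 of 12 synthetases lay below 0, by small amounts (the synthetases from -0.086 to 0.0093). Over all genes, 51.4% lay above 0. Without Control M01, 26 of the 33 genes, all 5 transporters and 10 of 12 synthetases lay below 0. These genes were measured in the same libraries, so their signs are not independent.

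Values of Atf5 in each comparison share the Control or Dehydrated libraries, so they are not independent of each other. Side by side, its log2 fold changes were 0.82, 0.01 and -0.81 in the 3 comparisons, and those of the reference transcript Pcsk1, the prohormone convertase of the same neurons, were 1.39, 0.13 and -1.26. Pdyn, the opioid precursor stored with vasopressin, gave 1.13, 0.48 and -0.65, and Avp, the vasopressin precursor, gave 1.81, 1.16 and -0.65. Without Control M01 the first 2 values were 0.89 and 0.09 for Atf5, 1.29 and 0.03 for Pcsk1, 1.14 and 0.50 for Pdyn, and 1.84 and 1.19 for Avp.

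**Figure D4:**
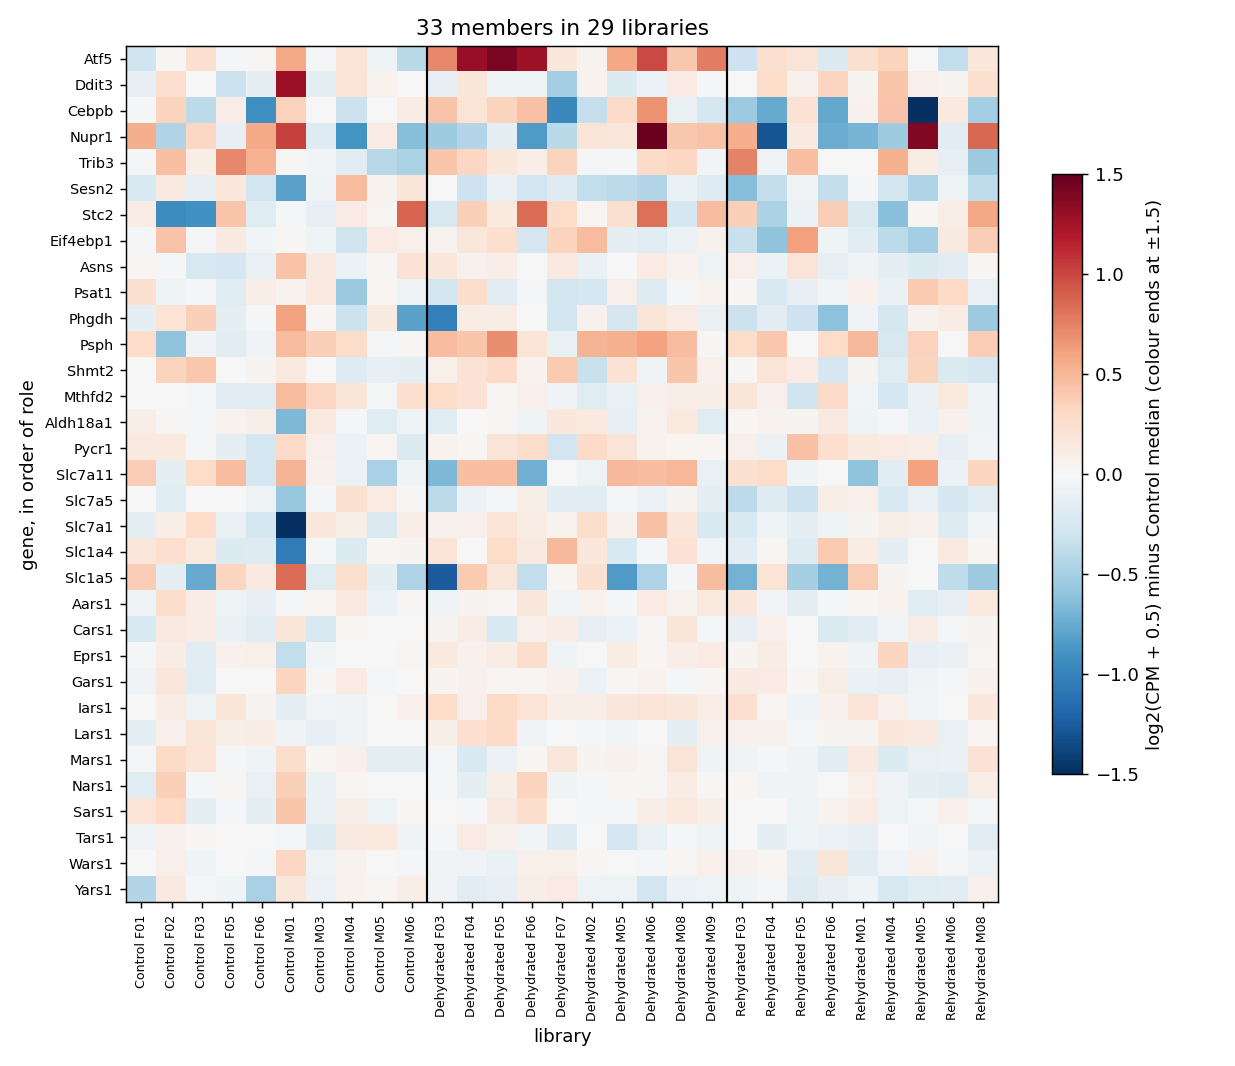
Each of the 33 genes (rows, in order of role) in each of the 29 libraries (columns, by group) as log2(CPM + 0.5) minus the gene's Control median; red is higher and blue lower. Control M01 is the column with most strong colours, and Atf5 is the row in which the Dehydrated block is red while the synthetase rows at the bottom stay pale.

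Across the Dehydrated libraries, Atf5 was higher where transcripts of the vasopressin system were higher. Atf5, Pdyn, Pcsk1 and Avp had all been called in Dehydrated against Control on these same libraries. The relation of other genes to these transcripts was not computed, so a link particular to Atf5 was not tested. The 4 libraries with the most Atf5 (F05, F04, F06 and M06) had Pdyn at 183.2 to 207.4 CPM and Pcsk1 at 422.8 to 489.6 CPM, whereas the 2 with the least, F07 and M02, had Pdyn at 84.2 and 76.4 CPM and Pcsk1 at 110.6 and 159.7 CPM. Within the 10 Dehydrated libraries Pearson's r of log2 CPM was 0.95 for Atf5 with Pdyn (permutation p = 0.0001, adjusted p = 0.00072), 0.90 with Pcsk1 (p = 0.00012, adjusted p = 0.00072) and 0.77 with Avp (p = 0.00943, adjusted p = 0.0283). Spearman's rho was 0.93, 0.95 and 0.84, with permutation p of 0.00038, 0.00012 and 0.00392. Without the 2 libraries farthest from the median of the other transcript, r was 0.91, 0.88 and 0.84. For Atf5 with Atf4, r was 0.70 (permutation p = 0.0288, adjusted p = 0.0691), and rho 0.65 (p = 0.0488, adjusted p = 0.117), which did not pass over the 12 relations computed. The summed level of the 8 magnocellular markers ran from 2400 to 7135 CPM over the same 10 libraries. Avp alone ran from 1512 to 5179 CPM, so that sum does not gauge the amount of nucleus apart from Avp. Of the markers not called, Oxt ran from 397 to 1413 CPM and Calb1 from 107 to 169 CPM. Sim1 ran from 22.2 to 44.2 CPM, Otp from 20.65 to 40.3 CPM and Pou3f2 from 12.2 to 24.1 CPM. The part of the amount of nucleus in each punch was not tested.

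Over all 10 Control libraries, Atf5 was lower where Pcsk1 was higher. Atf5 with Pcsk1 gave an r of -0.87 (permutation p = 0.00019, adjusted p = 0.00076) and a rho of -0.81 (p = 0.00717, adjusted p = 0.0215) over 10 libraries. Without Control M01 r was -0.79 (exact permutation p = 0.0124, adjusted p = 0.0298), while rho was -0.73 and did not pass (exact permutation p = 0.0311, adjusted p = 0.0746). Without the 2 libraries farthest from the Pcsk1 median neither passed, with r at -0.79 (exact permutation p = 0.0196, adjusted p = 0.0588) and rho at -0.64 (exact permutation p = 0.0962, adjusted p = 0.231). With Pdyn r was -0.47 (permutation p = 0.169, adjusted p = 0.254) and rho -0.55 (p = 0.106, adjusted p = 0.212). Without Control M01 r was -0.80 (exact permutation p = 0.00999, adjusted p = 0.0298) and rho -0.75 (exact permutation p = 0.0255, adjusted p = 0.0746). From all 10 libraries less the 2 farthest from the Pdyn median, r was 0.23 and rho -0.12 (n = 8). The relation with Pdyn thus changed with the libraries left out. With Avp r was -0.09 and rho -0.05 (permutation p = 0.809 and 0.893), and with Atf4 0.59 and 0.42 (p = 0.0799 and 0.232), where r fell to 0.09 without Control M01.

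In the 9 Rehydrated libraries, r was -0.26 with Avp (rho -0.25), -0.01 with Pdyn (rho -0.07) and -0.07 with Pcsk1 (rho 0.27), with exact permutation p of 0.561, 0.972 and 0.886. With Atf4 r was 0.70 (exact permutation p = 0.0391, adjusted p = 0.0782) and rho 0.50 (exact permutation p = 0.178), and r was 0.24 without the 2 libraries farthest from the Atf4 median. With all libraries, the relations of Atf5 thus passed with all 3 vasopressin-system transcripts in Dehydrated, with Pcsk1 in Control and with none in Rehydrated. In Control the relation with Pcsk1 passed by r alone without Control M01, and by neither measure without the 2 farthest libraries. The relation with Pdyn in Control passed by r alone, and only without Control M01. The difference between treatments was not tested.

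**Figure D5:**
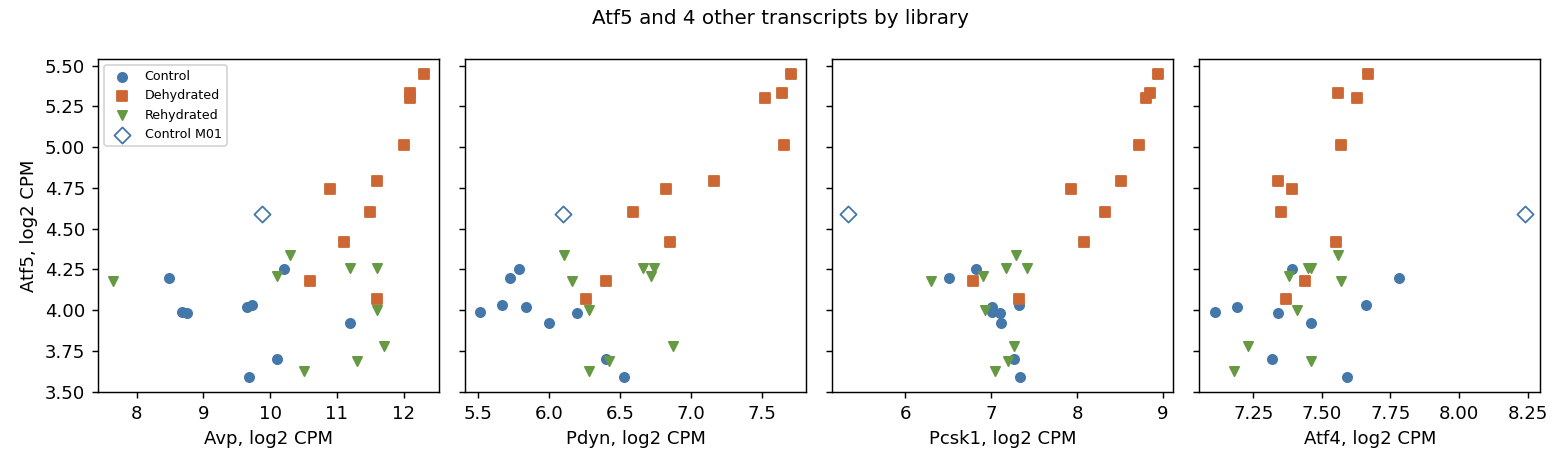
Log2 CPM of Atf5 (vertical axis) against that of Avp, Pdyn, Pcsk1 and Atf4 (horizontal axes), 1 point per library, coloured by group, with Control M01 as an open diamond. Dehydrated points rise together for Pdyn and Pcsk1 (r of 0.95 and 0.90), while Control M01 lies alone at the lowest Pcsk1 and the highest Atf4.

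Females and males were compared in their response. In a model of 6 group-by-sex cells, the sex difference of the response passed for 0 of the 33 genes in edgeR, both for dehydration (0% of all genes) and for rehydration (0% of all genes), and DESeq2 called 0 of the 33 in both (0.0114% and 0% of all genes). Without Control M01 the counts were again 0 of the 33, with 0% of all genes in both. At an unadjusted p under 0.05 there were 2 of the 33 genes in each, Mthfd2 and Yars1 for dehydration and Mthfd2 and Asns for rehydration, where 6.05% and 6.18% of all genes had one, so the share of the 33 was near that of all genes. For Atf5 the dehydration response was 0.44 higher in females on the log2 scale, with an interval of -0.22 to 1.09 (edgeR, adjusted p = 0.861), and 0.31 higher without Control M01 (interval -0.34 to 0.96). For Mthfd2 the rehydration response was 0.46 higher in females, with an interval of 0.13 to 0.79 (edgeR, adjusted p = 0.799), and 0.40 higher without Control M01 (adjusted p = 0.838). The median SE of these sex differences was 0.18, against 0.089 for the dehydration comparison, and 17 of the 33 genes had an interval between -0.5 and 0.5 for dehydration.

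Genes that signal to ATF4 or share its pathways were described from 8 lists with 122 genes, of which 115 were tested. None passed in any of the 3 comparisons in edgeR, with all libraries or without Control M01. At an unadjusted p under 0.05 there were 6 in Dehydrated against Control, 8 in Rehydrated against Control and 5 in Rehydrated against Dehydrated, shares near the 6.37%, 7.48% and 3.88% of all genes. The median log2 fold change of the 115 was -0.020 in Dehydrated against Control and 0.0092 without Control M01, beside -0.0030 and 0.0021 over all genes.

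Upstream of ATF4, 0 of 17 genes for the eIF2 kinases, eIF2, its exchange factor and its phosphatase passed, with 4 above 0 in Dehydrated against Control and 7 without Control M01. The smallest unadjusted p were those of Impact, an inhibitor of the amino acid sensor GCN2 (log2 fold change 0.21, p = 0.0481, adjusted p = 0.774 in edgeR), of Eif2ak2, the kinase PKR (-0.44, p = 0.0487, adjusted p = 0.774), and of Eif2s1, the alpha subunit of eIF2 (-0.12, p = 0.0996, adjusted p = 0.792). Without Control M01 they were 0.14, -0.29 and -0.05. For the sensing of amino acids by mTORC1, 0 of 15 tested genes passed, and the leading genes were the arginine-sensor family gene Castor2 (0.21), the kinase Mtor (0.10) and the GTPase Rragc (-0.07), with a list median of 0.0077. Without Control M01 they were at 0.11, 0.05 and -0.06, and the median at 0.015.

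Among further reported ATF4 targets, 0 of 22 tested genes passed, and 3 of the 25 listed were not tested. Ddit4, an inhibitor of mTORC1, averaged 85.2 ± 20.8 CPM in Control, 67.6 ± 3.52 CPM in Dehydrated and 70.3 ± 9.97 CPM in Rehydrated, with a log2 fold change of -0.31 in Dehydrated against Control (edgeR, p = 0.00678, adjusted p = 0.578) and of -0.29 without Control M01 (adjusted p = 0.665). Slc38a2, a carrier of neutral amino acids, and Nars2, a mitochondrial synthetase, had values of 0.24 each (adjusted p of 0.774 and 0.788 in edgeR), or 0.16 and 0.20 without Control M01. Among reported ATF5 targets in mitochondrial protein quality control, 0 of 11 passed and the list ran from -0.14 to 0.059 with a median of -0.017. It was led by the chaperonin Hspd1 (-0.14), the chaperone Trap1 (-0.08) and the protease Spg7 (0.06), at -0.09, -0.07 and 0.07 without Control M01, where the median of the list was 0.017.

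The remaining lists gave no call either. In one-carbon and glycine metabolism, 0 of 15 passed, with Srr, which makes D-serine (0.24, adjusted p = 0.741 in edgeR), Aldh1l2, a mitochondrial folate enzyme (0.31, adjusted p = 0.744), and Mat2a, which makes S-adenosylmethionine (-0.14, adjusted p = 0.762), in front, at 0.16, 0.30 and -0.14 without Control M01. In cysteine and glutathione synthesis, 0 of 9 passed, with the lipid peroxide reducing enzyme Gpx4 (-0.18), glutathione reductase Gsr (-0.13) and glutathione synthetase Gss (-0.14) in front, which were -0.03, -0.04 and -0.05 without Control M01. Among the other cytosolic synthetases and their cofactors, 0 of 11 passed, led by Farsa for phenylalanine (-0.12), Vars1 for valine (0.12) and the scaffold gene Aimp1 (-0.12), which were -0.10, 0.12 and -0.03 without Control M01. Among the mitochondrial synthetases, 0 of 15 passed, led by Tars2 for threonine (-0.13), Sars2 for serine (0.16) and Fars2 for phenylalanine (-0.15), or -0.07, 0.10 and -0.08 without that library. The medians of these 4 lists in Dehydrated against Control were 0.059, -0.025, -0.028 and -0.040, and without Control M01 0.058, -0.021, 0.0047 and -0.0087.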

How the data were processed

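The authors deposited whole fragment counts for each gene, from featureCounts 1.6.2 run without a strand option per the file header. The submitters' processing notes also list FastQC and DESeq2, and no source used here names an aligner. The authors' deposited tables were read for log2 fold changes with standard errors, and p-values with adjusted p-values. The 56 columns of values per library were not used. Names came from these tables for 9699 genes and, for 5594 more, from RefSeq positions on the same assembly (at least 0.5 of both spans shared), with the same name for 96.57% of the 8787 genes that had both.

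From the counts, edgeR 4.0.16 (R 4.3.3) tested 17558 genes, after filterByExpr removed 11612 that held 0.126% of counts. It used TMM scaling and robust quasi-likelihood fits of group plus sex (25 residual degrees of freedom) with Benjamini-Hochberg adjustment. CPM values use TMM-scaled totals, log2 CPM a prior count of 2, and 95% intervals are the estimate ± the t quantile times the SE. The SE holds counting noise and spread between libraries together. Relations used permutation tests, exact for 9 or fewer libraries and with 100000 resamples for 10, so that p-values near 1e-05 are the smallest possible, with adjustment over 12 relations, in Python 3.11.15 with numpy 2.4.6, scipy and pandas 2.3.3. In 126 pairs within groups, replicate counts differed by more than sampling noise (chi-square per degree of freedom 8.52 to 152).

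The members and lists were chosen with earlier results of these data known. All members are named, and from each pathway list those that passed and up to 3 genes with the smallest p in Dehydrated against Control. Cell type marker lists for magnocellular neurons, neurons, astrocytes, oligodendrocytes and their precursors, microglia, endothelial, mural, ependymal and blood cells were summed as CPM. Alternatives were each library left out, DESeq2 1.42.0, other scalings, filters, covariates and thresholds, and a block by replicate name.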

Additional observations from a re-analysis of the deposited data

Results flagged for a closer look

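In 14 of 120 gene and group combinations, 1 library lay far from the others of its group by Dixon's gap test on log2 CPM. Chance alone flags about 1 in 20, or 6 of 120. Control M01 accounted for 8 of them. In it Ddit3 was at 42.4 CPM (other Control libraries 13.55 to 20.4), Chac1 at 35.2 CPM (20.05 to 26.6), Ppp1r15a at 43.7 CPM (22.97 to 32.1) and Wars1 at 231 CPM (176 to 196), all higher. Aldh18a1 was at 35.03 CPM (49.4 to 61.4), Slc7a5 at 65.1 CPM (85.1 to 113), Slc7a1 at 5.90 CPM (35.3 to 51.6) and Slc1a4 at 44.6 CPM (80.2 to 111), all lower.

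Among the other libraries, Psat1 was low in Control M04 at 62.0 CPM (others 80.3 to 107). In Dehydrated, Phgdh was low in F03 at 40.5 CPM (68.7 to 94.0), Atf3 and Pycr1 were low in F07 at 0.136 CPM (0.523 to 1.51) and 7.62 CPM (9.57 to 11.6), and Nars1 was high in F06 at 367 CPM (265 to 314). In Rehydrated, Ppp1r15a was low in M08 at 20.97 CPM (27.9 to 37.1). These libraries were kept in all fits other than those that leave them out.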

How the results depend on the processing

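Of the 33 genes, 1 (Atf5) was called in Dehydrated against Control. Leaving out each library in turn gave 0 to 1 called genes there and in Rehydrated against Dehydrated, and 0 in Rehydrated against Control and in both sex differences. With only the compared groups the count in Dehydrated against Control was 0, since Atf5 had an adjusted p of 0.0902 with fewer samples, and, left-out libraries aside, the other planned settings kept Atf5 as the gene called. Across the planned settings its log2 fold change ran from 0.74 to 1.00. In Rehydrated against Dehydrated, 1 gene (Atf5) was called by DESeq2 (adjusted p = 0.00246), by DESeq2 without Control M01 (0.000743), with the replicate block (0.00845) and at a threshold of 0.1. The cause was not tested.

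Replicate names gave no clear sign of pairing: of 19 same-named pairs across groups, 2 had a correlation of deviations over 0.1 (range -0.12 to 0.11). The median was 0.016 for same-named pairs and 0.0010 for other pairs. Pairing that leaves no such correlation cannot be seen in this way. With the replicate block, 1 gene was called in Dehydrated against Control (Atf5, log2 fold change 1.00, adjusted p = 0.0257), 0 in Rehydrated against Control and 1 in Rehydrated against Dehydrated (Atf5, -1.04).

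By Pearson's r, the number of relations of Atf5 past the threshold was 4 of 12, and 5 without Control M01, 3 without the 2 farthest libraries and 4 on unscaled totals. By Spearman's rho it was 4, 3, 3 and 4. The intervals of Atf3, Stc2, Nupr1 and Cebpb were the widest in Dehydrated against Control. Counts per library were 2 to 51 for Atf3 and 1 to 25 for Stc2, which had the lowest minima of the member genes. They were 14 to 143 for Nupr1 and 18 to 101 for Cebpb. Trib3 had 13 to 46, with a narrower interval (-0.32 to 0.47). Counting noise and spread between libraries were not separated.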
